A study of Mus musculus with 6 samples.

Results

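The transcripts described here encode the integrins, the laminins and the proteins that tie laminin into basement membranes, sequenced as mRNA from interstitial cells of the fetal testis with and without an activator of Hedgehog signalling. The genes were chosen by symbol alone: all integrin α chains, the numbered integrin β chains, all laminin α, β and γ chains, the nidogens Nid1 and Nid2, Hspg2 (perlecan) and Agrn (agrin). This rule found 41 of the 24413 gene rows of the deposited table, made up of 18 integrin α, 8 integrin β and 11 laminin genes and the 4 others.

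Integrins are receptors built of 1 α and 1 β chain that span the cell membrane, hold matrix proteins outside the cell and couple to actin through adaptors such as talin and kindlin inside it. The α chain largely sets the ligand: one group recognises the RGD sequence of fibronectin and related proteins, another laminins, another collagens, and a last one is found on leukocytes. Laminins are trimers of an α, a β and a γ chain that polymerise into the sheet on which a basement membrane forms, and nidogens and perlecan connect that sheet to collagen IV. In the fetal testis, basement membranes surround the cords and the vessels that the interstitial cells lie between.

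The cells were W-EGFP cells, interstitial cells isolated from testes of FLE-EGFP mice at stage E16.5, a line in which a fetal Leydig enhancer of Nr5a1 drives EGFP. Each sample held 10000 cells. In 3 samples the cells received 0.5 µM SAG, an agonist of the Hedgehog transducer Smoothened, and in the 3 others only its vehicle DMSO, for 1 hour in both groups. The column names of both groups also carry "siCnt", which the labels do not explain, so whether all cells had received a control siRNA is not stated.

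The values are the authors' scaled CPM, called signal below, and errors are SD (n = 3 per group). Depth was 18486396 to 25491259 reads in DMSO libraries but 7694479 to 8804335 in SAG libraries, so 1 read is worth a signal of 0.0414 to 0.0564 in DMSO and 0.106 to 0.128 with SAG. Gli1, the transcription factor gene that Hedgehog signalling induces, had signals of 0.704, 0.324 and 0.846 in DMSO and of 32.6, 46.3 and 30.8 with SAG, in the direction of the labels, and the Hedgehog receptor gene Ptch1 was at 13.7 ± 2.28 and 39.6 ± 11.6. Of the 11 interstitial progenitor markers all were detected in every library, led in DMSO by Gata4 (223 ± 8.70) and Nr2f2 (150 ± 7.25). Of 8 fetal Leydig markers 4 were tested, of which Scarb1 and Hsd3b1 rose and 2 were not called. Over all tested genes 12.9% rose. Of the 8 markers, 1 to 3 were at 0 in a DMSO library and 3 or 4 in a SAG library. The summed signal of all 8 was 85.7 to 90.1 in DMSO and 116 to 196 with SAG, with Cyp17a1 and Insl3 at a mean under 1 in both groups. SAG replicate 3 stood apart. Rn45s, a ribosomal RNA gene, took 1.67% of its reads and 0.326% to 0.360% of those of any other library, and its summed signal of 8 fetal Leydig markers was 196 against 116 and 121 in the other SAG libraries. Genes were tested with limma on log2(signal + 1) where the mean signal was at least 1, and a gene is said to have risen or fallen where its Benjamini-Hochberg adjusted p over all genes tested was under 0.05.

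Integrin and laminin genes changed in both directions with SAG. Of the 41 genes 29 passed the filter on low signal, and of these 9 rose and 8 fell. Over all 12550 genes tested, 12.9% rose and 16.6% fell, 29.6% in all. The genes that rose were Itga6, Itga8, Itga9, Itga10, Itgb3, Itgb8, Lama4, Lamb2 and Lamc3. Those that fell included Itga5, Itga7, Itgav, Itgb1, Lama1, Lama2 and Nid1.

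Among the 29 tested genes the groups did not overlap for 11 that were higher with SAG and 9 that were lower. Over all tested genes 48.0% did not overlap, 21.2% with SAG higher and 26.8% with SAG lower. The median log2 fold change of the 29 genes was 0.07, against -0.03 for all genes. At a mean signal of at least 100, 39.9% of all tested genes were called and 9 of 17 of the genes described here. Between 10 and 100 the values were 29.3% and 5 of 8, and between 1 and 10 they were 24.1% and 3 of 4. With SAG replicate 3 left out 12 rose and 9 fell, and with any 1 DMSO library left out 9 rose and 6 fell. Counts over all tested genes also moved as single libraries were left out, over the range given in the last section. The shares of all genes above are those of the main fit.

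**Figure D1:**
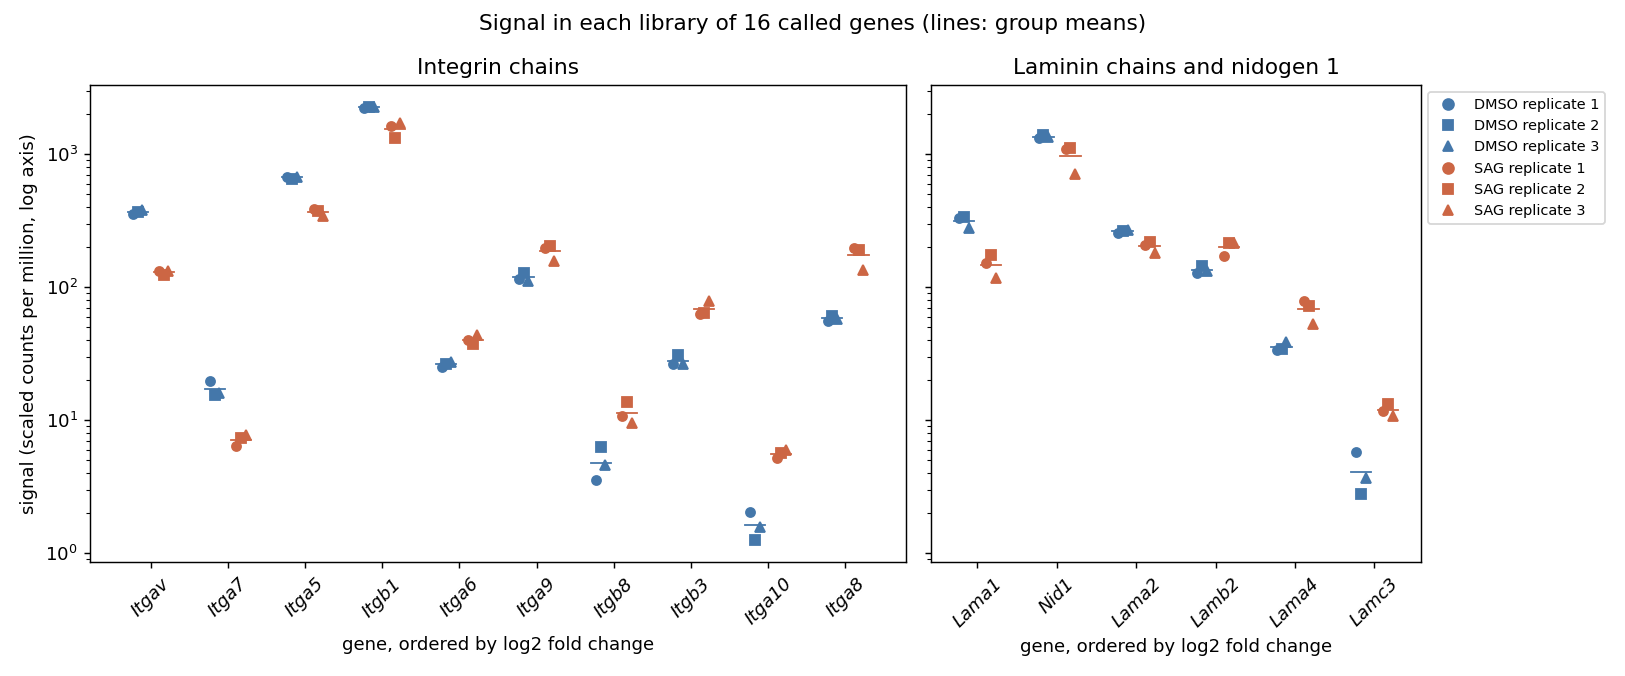
Signal in each library (log axis) of 16 integrin and basement membrane genes called at an adjusted p under 0.05, DMSO in blue and SAG in orange, with a marker shape for each replicate and a line for each group mean. For all 16 genes drawn the 3 SAG points lie wholly above or wholly below the 3 DMSO points.

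Among the αv, α5 and α8 chains, whose integrins bind the RGD sequence, α8 rose and the others fell. Itga8 encodes α8, the receptor chain for the basement membrane protein nephronectin. Its signal was 55.5, 60.9 and 57.6 in DMSO replicates 1 to 3 and 198, 191 and 134 in SAG replicates 1 to 3. Every SAG library was more than double any DMSO library, and SAG replicate 3 was the lowest of the SAG libraries. The rise was 3.0-fold, with a log2 fold change of 1.55 (SE 0.15; limma, Benjamini-Hochberg adjusted p = 1.23e-04).

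Itgav encodes αv, the chain shared by the vitronectin receptors and by the integrins that release TGF-β from its latent form. It had signals of 355, 369 and 377 in DMSO and of 132, 123 and 133 with SAG. The libraries of each group lay close together and the groups far apart. This was a 2.83-fold decrease (log2 fold change -1.50, SE 0.09; limma, Benjamini-Hochberg adjusted p = 1.89e-05), the largest fall among the 29 genes.

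Itga5, which encodes the α chain of the main fibronectin receptor, had signals of 678, 651 and 677 in DMSO and of 389, 374 and 340 with SAG. All SAG libraries were below all DMSO libraries, by 1.82-fold on average (log2 fold change -0.86, SE 0.09; limma, Benjamini-Hochberg adjusted p = 2.47e-04). The GRCm38 positions are chr2:12106632-12301922 (minus strand) for Itga8, chr2:83724397-83806916 (plus strand) for Itgav and chr15:103344286-103366763 (minus strand) for Itga5. An antisense transcript overlaps 372 exonic bases of Itga8 and another noncoding transcript 634 of Itgav on the opposite strand. Opposite-strand transcripts also overlap exons of Lama2, Lamc3, Nid1, Nid2, Itga4 and Itgb4. The strand setting of the counting is not given in the sources used here, so reads of such partners cannot be told apart from those of the gene.

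The promoters of these 3 genes are shown because they are the RGD receptor chains that moved in opposite directions. Each line gives the 250 bases before the RefSeq transcription start (build GRCm38.p6), 5′ to 3′ on the gene's strand, in lower case with the GC box CCGCCC or its reverse GGGCGG in capitals. Itga8 is chr2:12301945-12302194 on the minus strand, Itgav chr2:83724147-83724396 on the plus strand and Itga5 chr15:103366792-103367041 on the minus strand.
Itga8: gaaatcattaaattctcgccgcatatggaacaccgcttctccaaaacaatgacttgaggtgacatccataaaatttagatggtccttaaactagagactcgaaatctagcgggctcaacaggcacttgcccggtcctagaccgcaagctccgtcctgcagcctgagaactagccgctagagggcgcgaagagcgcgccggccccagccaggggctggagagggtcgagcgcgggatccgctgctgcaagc
Itgav: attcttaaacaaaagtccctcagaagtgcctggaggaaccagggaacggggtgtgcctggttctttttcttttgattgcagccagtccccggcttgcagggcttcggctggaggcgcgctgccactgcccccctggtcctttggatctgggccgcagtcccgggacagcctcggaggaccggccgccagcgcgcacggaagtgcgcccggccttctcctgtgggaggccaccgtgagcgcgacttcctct
Itga5: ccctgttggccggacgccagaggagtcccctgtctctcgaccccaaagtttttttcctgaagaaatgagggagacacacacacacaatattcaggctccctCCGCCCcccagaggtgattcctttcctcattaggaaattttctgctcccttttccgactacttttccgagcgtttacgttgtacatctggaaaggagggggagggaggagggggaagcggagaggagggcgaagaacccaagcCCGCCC
Only the Itga5 window of these 3 held a GC box, in 2 places. Of the 41 genes 26 had a RefSeq promoter entry. The GC box was in the windows of 11 of these 26 genes and of 35.4% of all genes with an entry (32.7% of 32851 windows). Among the 26 it was in 0 of the 5 risen and 3 of the 5 fallen genes. The core motif of the Hedgehog factors GLI, GACCACCCA or its reverse TGGGTGGTC, was in the window of 0 of the 26 genes. It was in those of 0.255% of all genes with an entry (0.225% of all windows). At so low a rate a count of 0 does not set the 26 genes apart. A match or its lack describes only these letters in this window.

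Laminin-binding integrins did not move together. Itga7, best known from skeletal and smooth muscle, had signals of 19.8, 15.4 and 16.0 in DMSO and of 6.37, 7.31 and 7.71 with SAG. It fell 2.40-fold, with no overlap between the groups (log2 fold change -1.15, SE 0.16; limma, Benjamini-Hochberg adjusted p = 8.42e-04). Itga6, a chain found on many epithelial, endothelial and stem cells, had signals of 25.2, 26.4 and 27.4 in DMSO and of 40.2, 37.3 and 43.3 with SAG. It rose 1.53-fold (log2 fold change 0.59, SE 0.11; limma, Benjamini-Hochberg adjusted p = 0.00486), so that the lowest SAG library stood above the highest DMSO library. Itga3 was not called, at 72.1 ± 3.64 and 70.3 ± 4.18, and the 95% interval of its log2 fold change ran from -0.26 to 0.19.

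Of the 3 tested collagen-binding chains Itga10 rose and the others were not called. Itga10, known best from cartilage, rose 3.44-fold from a low level, with signals of 2.03, 1.25 and 1.58 in DMSO and of 5.16, 5.61 and 5.91 with SAG. The reads behind them numbered 49, 27 and 28 for DMSO and 47, 53 and 46 for SAG, whose libraries were shallower (log2 fold change 1.33, SE 0.20; limma, Benjamini-Hochberg adjusted p = 0.00128). A predicted protein-coding gene overlaps 1739 of its 5186 exonic bases on the same strand, so its level is uncertain. Itga11, a fibroblast collagen receptor chain, had signals of 60.5, 58.0 and 53.1 in DMSO and of 85.8, 96.4 and 59.3 with SAG. Only SAG replicate 3 reached down into the DMSO range, and the gene was not called (log2 fold change 0.46; limma, Benjamini-Hochberg adjusted p = 0.0660). Without SAG replicate 3 it passed (log2 fold change 0.66; adjusted p from limma 1.45e-06), as it did with 4 other settings. Itga1 was at 129 ± 4.84 and 130 ± 17.1 and not called, but it passed as higher after removal of length and GC trends (log2 fold change 0.26; adjusted p from limma 0.0406). The last of these chains, Itga2, had at most 9 reads in any library.

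Of the remaining pair of α chains, which bind tenascin, fibronectin and cell surface ligands, 1 rose. Itga9 had signals of 115, 129 and 111 in DMSO and of 195, 204 and 157 with SAG. Its groups were separate and the rise was 1.57-fold (log2 fold change 0.64, SE 0.12; limma, Benjamini-Hochberg adjusted p = 0.00450). Itga4 had signals of 122, 145 and 128 in DMSO and of 124, 128 and 58.6 with SAG. Replicates 1 and 2 of SAG lay within the DMSO range and replicate 3 far below it, and the gene was not called (log2 fold change -0.42, 95% interval -1.0 to 0.16).

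The β chains that pair with αv also differed in direction. Itgb1, the partner of most α chains and the most abundant integrin transcript per length, had signals of 2237, 2274 and 2257 in DMSO and of 1617, 1325 and 1722 with SAG. It fell 1.45-fold with no overlap (log2 fold change -0.55, SE 0.12; limma, Benjamini-Hochberg adjusted p = 0.00770). Itgb3, which joins αv in the vitronectin receptor and αIIb on platelets, had signals of 26.2, 31.0 and 26.3 in DMSO and of 63.2, 64.3 and 78.4 with SAG. Every SAG library was more than double any DMSO library, a 2.47-fold rise (log2 fold change 1.27, SE 0.13; limma, Benjamini-Hochberg adjusted p = 1.65e-04).

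Itgb8, whose product pairs with αv alone and presents latent TGF-β, was low. Its signals were 3.56, 6.24 and 4.57 in DMSO and 10.7, 13.8 and 9.50 with SAG. The groups stayed apart, with a rise of 2.36-fold (log2 fold change 1.10, SE 0.21; limma, Benjamini-Hochberg adjusted p = 0.00502). Itgb5 had signals of 741, 764 and 712 in DMSO and of 742, 772 and 1066 with SAG, so that only SAG replicate 3 was high, and it was not called (95% interval of the log2 fold change -0.11 to 0.51). Per kb of exon the mean level of Itgav was 34.1 ± 1.02 in DMSO and 12.0 ± 0.513 with SAG, and that of Itgb3 4.71 ± 0.464 and 11.6 ± 1.43. In DMSO the αv transcript thus stood far above the β3 transcript, and with SAG their levels per kb lay within 1 SD of Itgb3 of each other. The length used is that of all annotated exons of a gene, so this comparison between genes depends on the annotation. Before division by length the mean signals of Itgav and Itgb3 were 367 and 27.8 in DMSO and 129 and 68.6 with SAG.

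**Figure D2:**
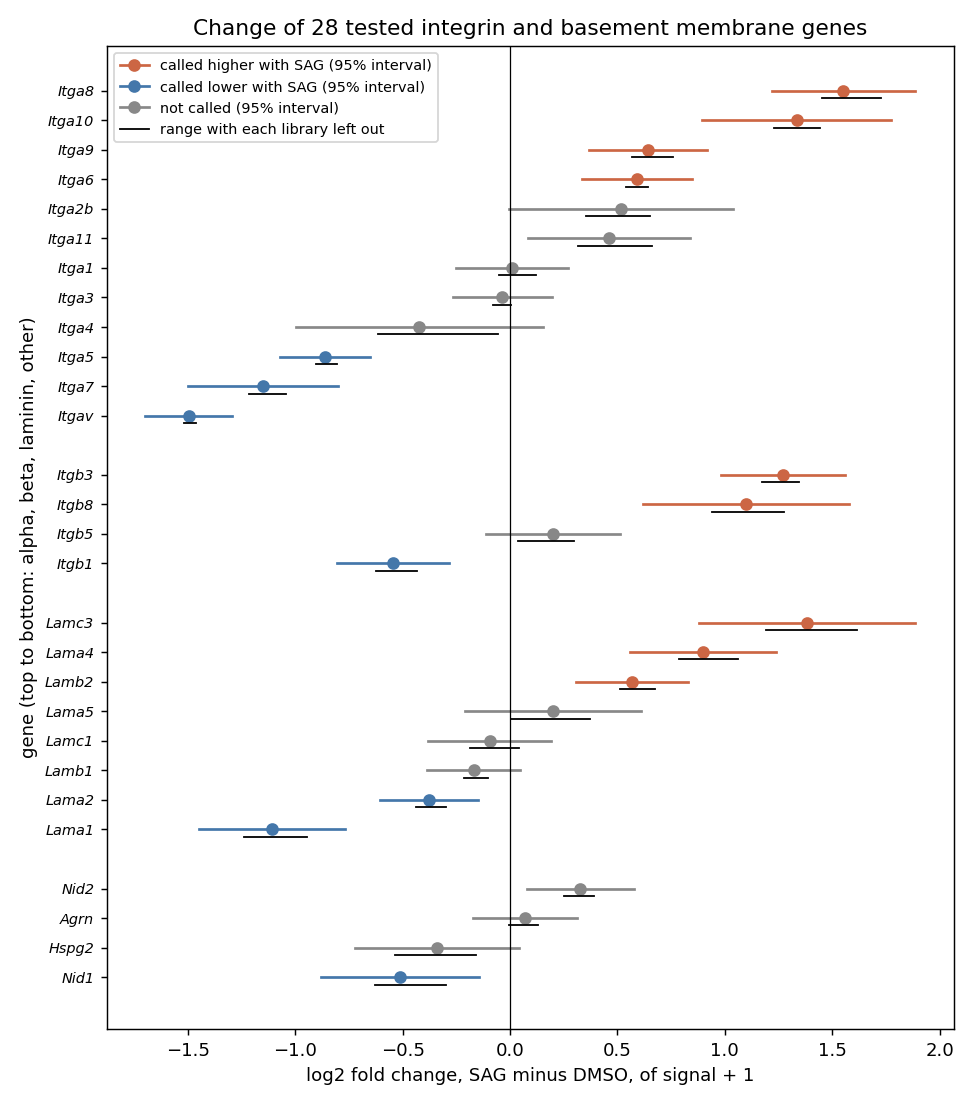
Log2 fold change (SAG minus DMSO, of signal + 1) of 28 tested genes in 4 blocks, integrin α, integrin β, laminin and other basement membrane genes, with the 95% interval from limma in colour and the range over fits with each library left out in black. Risen and fallen genes occur side by side in each of the first 3 blocks, from Itgav at -1.50 to Itga8 at 1.55.

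As a pool, the integrin α transcripts shifted away from α5 and αv. Shares were taken of the summed signal per kb, with the exon union of each gene as its length. In this pool Itga5 held 56.7% ± 1.30 in DMSO and 40.6% ± 1.92 with SAG, and Itgav 14.3% ± 0.429 and 6.61% ± 0.933. The share of Itga8 went from 3.30% ± 0.156 to 12.8% ± 1.34, that of Itga9 from 6.43% ± 0.514 to 13.1% ± 0.479, and that of Itga11 from 4.67% ± 0.310 to 8.45% ± 1.24. For each of these 5 chains the 3 SAG libraries did not overlap the 3 DMSO libraries. Shares sum to 100%, so the fall of one chain raises the others, and the summed level per kb was itself lower with SAG, at 239 ± 0.116 and 184 ± 19.3. These shares were not tested.

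**Figure D3:**
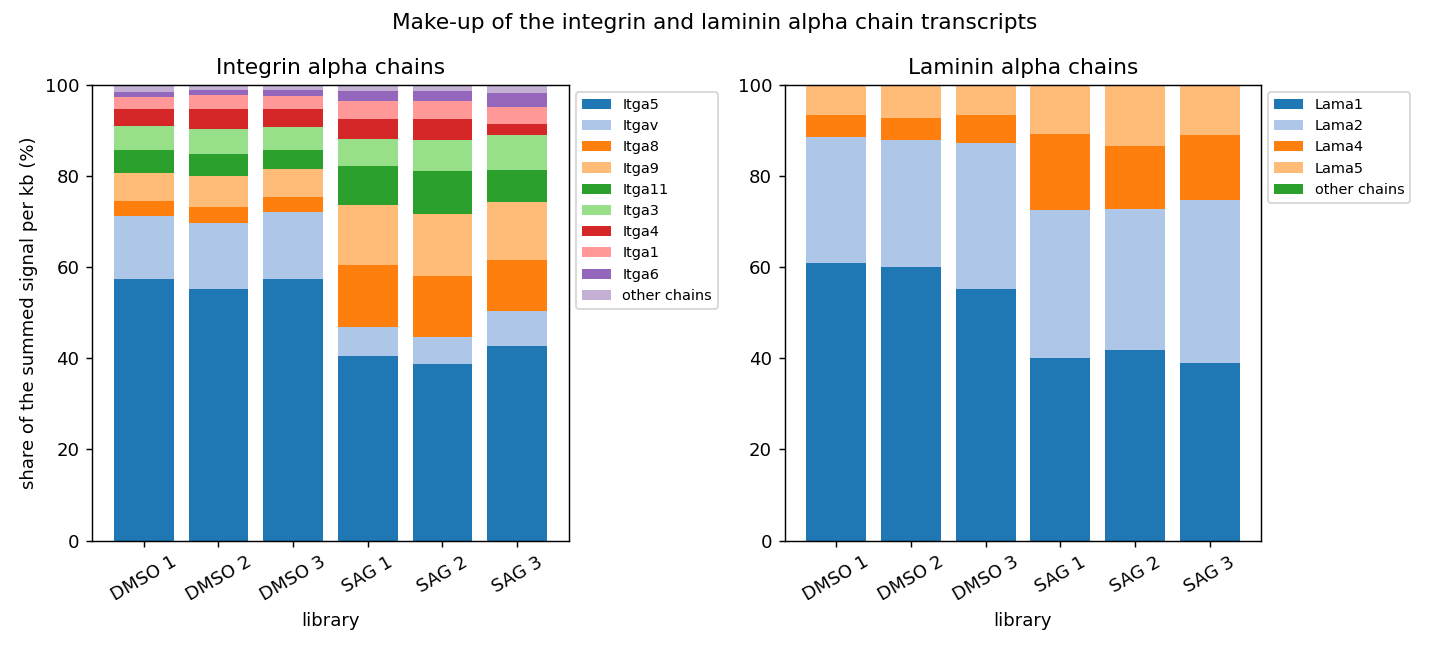
Share of each chain in the summed signal per kb (%, stacked to 100) of the integrin α chains and of the laminin α chains, in each of the 6 libraries. Itga5 takes 55.2% to 57.5% of the integrin pool in DMSO and 38.8% to 42.6% with SAG, and Lama1 takes 55.3% to 61.0% of the laminin pool in DMSO and 39.0% to 41.7% with SAG.

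Itga2b, the platelet chain αIIb, had signals of 1.62 to 2.69 in DMSO and 2.75 to 4.50 with SAG and was not called (limma, Benjamini-Hochberg adjusted p = 0.121). These levels rest on 26 to 65 reads per library, the groups did not overlap, and the gene passed as higher on reads thinned to the shallowest library (adjusted p from limma 0.0366). The leukocyte genes Itgal, Itgam, Itgax, Itgad, Itgae, Itgb2 and Itgb7 had at most 6 reads in any library, and Itgal and the epithelial Itgb6 had 0 in all 6. A protein-coding gene on the same strand overlaps 3450 of the 5024 exonic bases of Itgam, so the level of Itgam is uncertain. A count of 0 allows a signal of up to 0.124 to 0.169 in the DMSO libraries and 0.318 to 0.385 in the SAG libraries (3 reads, counting error only). Of the 12 macrophage and leukocyte markers 9 stayed under a signal of 1 in every library, and their summed signal was 2.40 to 3.56 in DMSO and 1.17 to 3.74 with SAG. The 8 platelet markers summed to 43.0 to 55.4 in DMSO and 48.7 to 55.7 with SAG, nearly all of it Gp1bb (49.0 ± 6.51 and 52.5 ± 4.74, not called), and 5 of them, including Pf4 and Gp9, were at 0 in all libraries.

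Itgb4, the epithelial partner of α6, was under the filter and not tested. Reads numbered 24, 14 and 16 for DMSO and 4, 1 and 2 for SAG, which are signals of 0.994, 0.647 and 0.902 and of 0.439, 0.106 and 0.257. All SAG libraries were below all DMSO libraries. The direction is opposite to that of its partner gene Itga6.

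Laminin α chains split as the integrins did. Lama1, the α chain of the first laminin of embryonic basement membranes, had signals of 333, 337 and 276 in DMSO and of 151, 175 and 117 with SAG. The highest SAG library was below the lowest DMSO library and the mean fell 2.14-fold (log2 fold change -1.11, SE 0.15; limma, Benjamini-Hochberg adjusted p = 8.60e-04). Lama4, the α chain of vessel and mesenchymal laminins, had signals of 33.5, 34.3 and 38.9 in DMSO and of 78.4, 72.0 and 53.2 with SAG. Its groups did not overlap, SAG replicate 3 was again the lowest of its group, and the rise was 1.91-fold (log2 fold change 0.90, SE 0.15; limma, Benjamini-Hochberg adjusted p = 0.00261).

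Lama2, the muscle and nerve laminin chain whose loss causes a congenital muscular dystrophy, fell less, from 254, 264 and 270 in DMSO to 207, 219 and 181 with SAG. The groups were separate, at 1.30-fold, and the call was near its limit (log2 fold change -0.38, SE 0.10; limma, Benjamini-Hochberg adjusted p = 0.0212). It was lost without any 1 DMSO library (adjusted p from limma 0.0744 to 0.106), with scaling by library total (0.145), without the mean-variance trend (0.0502) and after removal of length and GC trends (0.0703). Lama5, the α chain of many mature basement membranes, was not called, with signals of 42.4, 47.7 and 37.6 in DMSO and of 47.2, 64.6 and 38.3 with SAG, but passed as higher without SAG replicate 3 (adjusted p from limma 0.0116), and Lama3 had at most 14 reads in any library. In the pool of laminin α chains per kb, Lama1 went from 58.7% ± 3.04 to 40.3% ± 1.39 and Lama4 from 5.35% ± 0.773 to 14.9% ± 1.53, while Lama2 held 29.1% ± 2.49 and 33.1% ± 2.47.

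Among the β and γ chains the abundant Lamb1 and Lamc1 were not called, and Lamb2 and Lamc3 rose. Lamb1 was not called, at 923 ± 9.11 and 823 ± 65.7, and its 95% interval ran from -0.38 to 0.05; without SAG replicate 3 it passed as lower (log2 fold change -0.21; limma, Benjamini-Hochberg adjusted p = 0.00809). Lamb2, the β chain of kidney filter and neuromuscular laminins, had signals of 128, 144 and 131 in DMSO and of 172, 216 and 214 with SAG. It rose 1.49-fold without overlap (log2 fold change 0.57, SE 0.12; limma, Benjamini-Hochberg adjusted p = 0.00608). Its share of laminin β transcripts per kb was 19.2% ± 1.11 in DMSO and 28.4% ± 1.04 with SAG.

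Lamc1, the γ chain of most laminins (chr1:153218922-153332786, minus strand), was not called, at 1077 ± 41.4 and 1017 ± 165 (95% interval of the log2 fold change -0.38 to 0.19). Lamc3 had signals of 5.80, 2.77 and 3.67 in DMSO and of 11.8, 13.1 and 10.8 with SAG. It rose 2.92-fold, all SAG libraries being higher (log2 fold change 1.38, SE 0.22; limma, Benjamini-Hochberg adjusted p = 0.00204). Lamb3, a β chain of epithelial laminin, had at most 2 reads in any library.

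Of the nidogens, perlecan and agrin, Nid1 fell and the others were not called. Nid1, which bridges laminin and collagen IV, had signals of 1321, 1394 and 1343 in DMSO and of 1083, 1116 and 707 with SAG. It fell 1.40-fold, with SAG replicate 3 far below the other SAG libraries (log2 fold change -0.51, SE 0.16; limma, Benjamini-Hochberg adjusted p = 0.0415). The call was lost in 8 alternatives, among them without any 1 DMSO library (adjusted p from limma 0.113 to 0.131), with scaling by library total (0.151), without a filter (0.0858) and in edgeR's quasi-likelihood test (Benjamini-Hochberg adjusted p = 0.0632).

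Its paralog Nid2 had signals of 120, 122 and 103 in DMSO and of 144, 158 and 132 with SAG. All SAG libraries were higher, but the gene did not pass (log2 fold change 0.33, SE 0.11; limma, Benjamini-Hochberg adjusted p = 0.0520). It did pass in 5 alternatives, among them without SAG replicate 3 (adjusted p from limma 3.66e-04) and in edgeR (Benjamini-Hochberg adjusted p = 0.0365). Hspg2, the heparan sulfate proteoglycan perlecan, had signals of 3611, 3748 and 3460 in DMSO and of 2803, 3714 and 2210 with SAG. Its SAG libraries were spread from the DMSO range downward and it was not called (95% interval of the log2 fold change -0.72 to 0.04), but it passed as lower after removal of length and GC trends (log2 fold change -0.55; adjusted p from limma 0.00348) and without SAG replicate 2 (-0.53; 0.0190). Agrn, which organises neuromuscular and other basement membranes, was at 136 ± 13.0 and 142 ± 8.92 and not called.

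Integrin partners in the cell and its membrane were also counted. Of 32 listed adaptors, kinases and tetraspanins 29 were tested, of which 15 fell and 3 rose, with a median log2 fold change of -0.40; over all tested genes 12.9% rose and 16.6% fell, with a median of -0.03. The focal adhesion gene Vcl (vinculin) fell 2.19-fold, from 1377 ± 35.7 to 630 ± 57.6, and Fermt2 (the integrin activator kindlin 2) 2.11-fold, from 617 ± 19.9 to 293 ± 32.1. Ptk2b, a kinase related to focal adhesion kinase, fell 2.12-fold, from 24.9 ± 0.902 to 11.8 ± 2.14. The tetraspanin gene Cd82 rose 1.88-fold, from 21.9 ± 2.40 to 41.1 ± 2.0. The number that fell was 9 with scaling by library total, 8 without any 1 DMSO library and 18 without SAG replicate 3. Counts over all genes also moved with that scaling and as single libraries were left out, whereas the shares given here are those of the main fit.

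Among 23 tested other basement membrane genes of 25 listed, 9 rose and 5 fell, with a median of 0.06 (12.9% and 16.6% of all tested genes rose and fell). The largest fall was that of Npnt, which encodes nephronectin: it fell 5.80-fold, from 81.7 ± 1.32 to 14.1 ± 3.78, while the gene of its receptor chain, Itga8, rose. Tgfbi, a matrix protein with integrin-binding sites, rose from 1.03 ± 0.425 to 31.9 ± 3.07, Frem1 6.92-fold from 15.0 ± 0.738 to 104 ± 12.4, and Fbln1 (fibulin 1) 3.53-fold from 22.8 ± 2.80 to 80.3 ± 6.01. Collagen IV genes, chosen here after their values were seen, differed by chain. The abundant Col4a1 and Col4a2 were not called, at 13529 ± 560 and 14145 ± 273 and at 7742 ± 286 and 8104 ± 574. Col4a4 rose 2.42-fold, and Col4a3, Col4a5 and Col4a6 fell 1.31-fold, 1.36-fold and 1.61-fold.

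Of 24 listed interstitial ligands of integrins 19 were tested, of which 5 rose and 5 fell, with a median of -0.02, against 12.9% and 16.6% of all tested genes. Col6a1 and Col6a2, chains of collagen VI, rose 2.89-fold and 2.98-fold, while Adam9, a membrane protease with an integrin-binding domain, fell 2.53-fold and Spp1 (osteopontin, an RGD ligand) 4.25-fold. Fn1, the ligand of α5, was named after its value was seen: its signals in SAG replicates 1 to 3 were 13853, 15072 and 6566 against 16528 to 17803 in DMSO, and it was not called (limma, Benjamini-Hochberg adjusted p = 0.115). Leaving out SAG replicate 3 gave 8 risen and 8 fallen ligands. Of 16 tested laminin receptors other than integrins and their partners, of 20 listed, 1 rose and 2 fell, again beside 12.9% and 16.6% of all genes. Bcam (a laminin α5 receptor) rose 2.26-fold, and Utrn (utrophin) and Dag1 (dystroglycan) fell 1.83-fold and 1.37-fold; the median was -0.18. With SAG replicate 3 or SAG replicate 1 left out 4 of them fell, and with length and GC trends removed 5. The shares of all genes in this paragraph are those of the main fit, and counts over all genes also moved as single libraries were left out. These lists were chosen with earlier results of these data known.

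**Figure D4:**
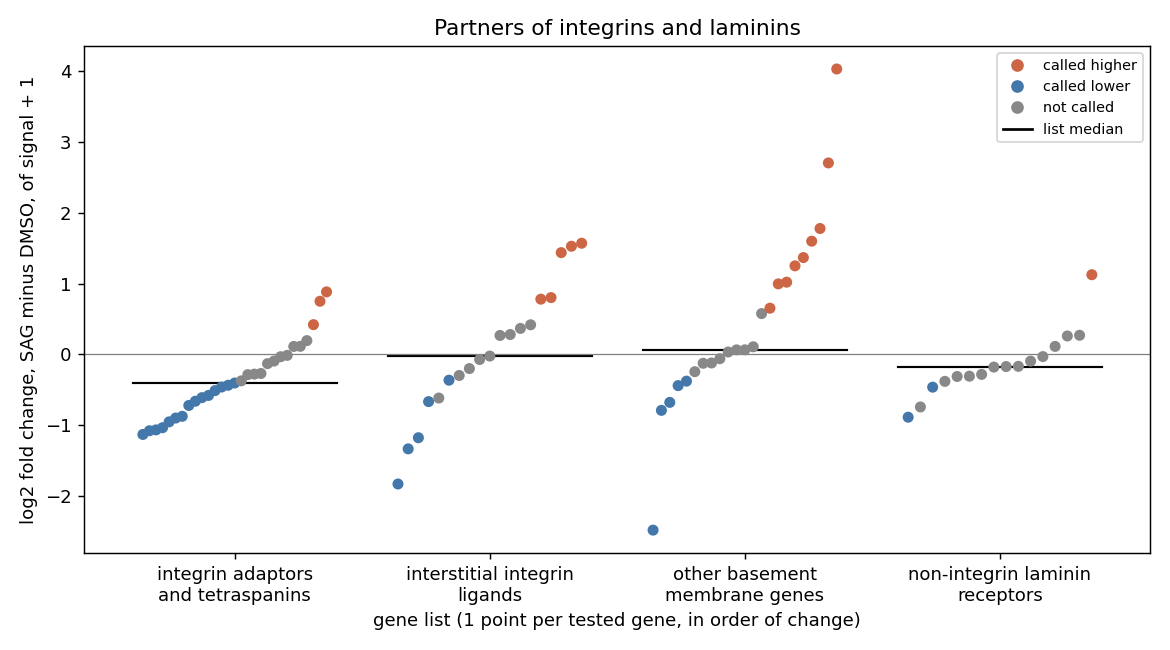
Log2 fold change (SAG minus DMSO, of signal + 1) of each tested gene in 4 lists of integrin and laminin partners, ordered within each list, with calls in colour and a black line at the list median. The adaptors sit mostly below 0 with a median of -0.40, while the other 3 medians lie between -0.18 and 0.06.

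Markers of other cell types were measured in the same libraries, and their counts stand beside 12.9% risen and 16.6% fallen over all tested genes. Of 11 tested markers of peritubular and vascular smooth muscle 9 fell and 2 rose, and their summed signal was 22053 to 23109 in DMSO and 13959 to 15423 with SAG; all 13 were detected in both groups. Of 5 tested surface epithelium markers 3 fell (summed signal of 8 genes 19.5 to 30.9 and 11.8 to 13.6), with Cdh1 and Epcam near 0. Of 5 tested endothelial markers only Flt1 was called, falling from 89.1 ± 2.89 to 44.8 ± 10.5. The summed signal of the 12 endothelial genes was 126 to 130 and 71.9 to 106, Cldn5 and Sox17 were at 0 in every library, and Cdh5 was at 27.8 ± 3.15 and 38.6 ± 8.94 and not called. Of the 11 interstitial progenitor markers 7 rose and 4 were not called. The sum of all 11 went from 704 to 710 in DMSO to 1244 to 1438 with SAG. Of those not called, 2 were lower in every SAG library than in any DMSO library. Over all tested genes 26.8% were lower in this way. Of 3 tested germ cell markers 1 rose and 2 were not called. The summed signal of the 10 listed was 6.54 to 11.3 in DMSO and 35.7 to 45.9 with SAG. Of the 10, 7 stayed under 1 in every library, so the sum with SAG rests on few genes and does not describe the list as a whole. Of 4 tested Sertoli cell markers 0 were called, and the 10 listed summed to 41.6 to 48.1 and 38.7 to 42.3. The part of these shifts in the changes of integrin and laminin genes was not tested, and in bulk samples fewer cells of a type and less RNA per cell cannot be told apart.

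Exon length moved with the spread among SAG libraries. SAG replicate 3 was the lowest SAG library for 17 of the 29 genes, against 40.3% of all tested genes, 31.8% of the quintile of genes with the shortest exons and 56.3% of the quintile with the longest. The median exon length was 8.04 kb for the 29 genes and 4.53 kb for all tested genes. Over all genes the median log2 fold change was 0.03 in the shortest and -0.17 in the longest quintile, and -0.02 and -0.10 without SAG replicate 3. With length and GC trends removed, 10 of the 29 genes rose and 8 fell, and Itga8, Itgav, Itga5, Itgb3, Lama1 and Lama4 kept their calls and directions.

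**Figure D5:**
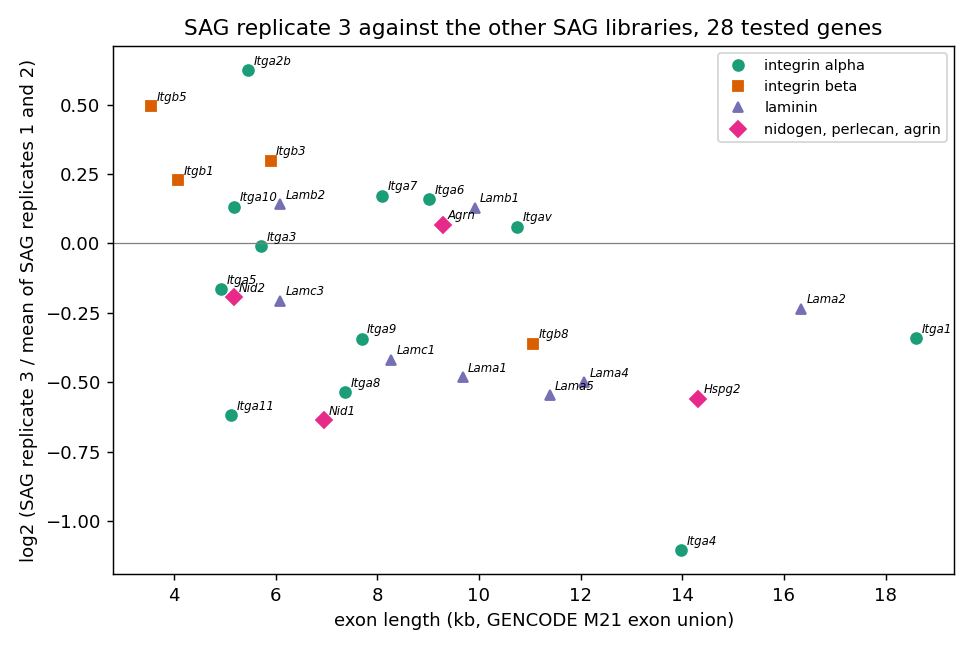
Signal of SAG replicate 3 relative to the mean of SAG replicates 1 and 2 (log2, vertical axis) against exon length (kb, horizontal axis) for 28 tested genes, with a marker shape for each class. The short Itgb5 and Itgb1 lie above 0, and Itga4, Hspg2, Lama4 and Lama5, all longer than 11 kb, lie below it, as do the shorter Itga11, Nid2 and Itga5. Not all genes follow length: Itgav, Lamb1, Agrn and Itga6, of 9.0 to 10.7 kb, lie above 0. The shorter Nid1 and Itga8 lie lower than Lama4.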

How the data were processed

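RNA-seq libraries from 3 DMSO and 3 SAG samples were analysed. The submitters' processing notes name the build GRCm38 (mm10) and the tools STAR, edgeR 2.2.1, Trim Galore 0.6.4 and featureCounts 2.0.0. Sources used here give no annotation, strand setting or filter. The deposited signal per gene symbol is the authors' CPM over a scaling factor per library. All values (100% within 0.01) were whole multiples of 1 step per column, which gave back whole reads, and TMM factors from those reads equalled the deposited scaling. In all, 92 spike-in rows (at most 0.0157% of a library's reads) were left out.

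SAG and DMSO were compared on the log2(signal + 1) scale in limma 3.58.1 (eBayes with trend, group as only term) in R 4.3.3 where the mean signal reached 1 (12550 genes); this scale understates the change of low genes, and plain folds are ratios of mean signals. P-values were Benjamini-Hochberg adjusted over all genes tested and called under 0.05. Whether replicates came from different cultures or litters is not stated, so the p-values cover the spread among these samples alone, which may be technical. Alternatives included edgeR 4.0.16 (1913 genes higher and 1820 lower) and DESeq2 1.42.0 on recovered reads, other scalings, filters and pseudocounts, thinned reads, length and GC trends removed, a replicate block and each library left out. Lengths and coordinates are from GENCODE M21 (GRCm38), promoters from RefSeq. The same code was run on simulated data with known changes. Not all of those changes were called and some calls fell on unchanged genes, so a gene that was not called may still have changed. Called genes were named with the value of each library, tested genes that were not called by their values, and up to 4 called genes of each related list by smallest p. Genes and lists were chosen with earlier results of these data known. The values of 1 called gene are not reported here; it stays in the fits and counts.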

Additional observations from a re-analysis of the deposited data

Results flagged for a closer look

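Reads on the 92 rows of synthetic spike-in RNAs, which enter no comparison, were found in the SAG libraries and in none of the DMSO libraries: 111, 54 and 1205 reads in SAG replicates 1 to 3 and 0 in each DMSO library. They are given here because this signal lies outside the main measurement and above its level in the control samples. Depth and spike-in reads both separated the SAG libraries from the DMSO libraries. A difference in library handling therefore cannot be told apart from SAG for any risen or fallen gene, and it was not tested.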

How the results depend on the processing

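Each of the 9 risen genes kept its call and direction in every alternative in which it was tested, Itga10 not being tested at a mean signal of at least 5. Of the 8 fallen genes 6 did so, the exceptions being Lama2 and Nid1. Over the alternatives other than leaving out a library, 8 to 11 of the genes rose and 6 to 8 fell; with each library left out in turn 9 to 12 rose and 6 to 9 fell. Over all genes, 901 to 2463 rose and 1086 to 3373 fell with each library left out, against 1625 and 2084 with all. Scaling by library total gave 2477 higher and 1260 lower genes overall and shifted their median log2 fold change from -0.03 to 0.10; 11 integrin and basement membrane genes then rose and 6 fell. Directions turned only for genes that were not called. With single libraries left out, the log2 fold change ran from -0.187 to 0.044 for Lamc1 (turned without SAG replicate 3), from -0.079 to 0.0055 for Itga3 (without DMSO replicate 2 or SAG replicate 1), from -0.052 to 0.123 for Itga1 (without DMSO replicate 1, SAG replicate 1 or SAG replicate 2) and from -0.0053 to 0.132 for Agrn (without DMSO replicate 3). Library-total scaling turned Lamc1 (0.047) and Itga3 (0.105), and Itga3 was at 0.0021 in edgeR and 0.0032 in DESeq2. With length and GC trends removed, with or without the block, Lama5 was at -0.0093 and Agrn at -0.054. The causes were not tested. The labels number the replicates but state no pairing. Same-numbered DMSO and SAG libraries did not deviate together (correlations -0.02, 0.03 and -1.7e-04). With 3 libraries per group and SAG replicate 3 set apart, these correlations cannot decide whether the numbers pair them. With a replicate block 10 of the 29 genes rose and 8 fell, Itga11 being added, and the block with length and GC trends removed gave 9 and 8. Depth limits the genes with few reads: at the SAG depths a gene such as Itgb4 had at most 4 reads a library.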
